A study of Sorghum bicolor with 5 samples.

Results

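The sorghum dwarfing genes *Dw1* (*SORBI_3009G229800*), *Dw2* (*SORBI_3006G067700*) and *Dw3* (*SORBI_3007G163800*) were followed in young leaves of 2 contrasting epi-F3 lines. These 3 genes were picked by their identifiers, for their known role in plant height, out of 35567 gene features in the count files, and all 3 were among the 23098 genes tested. By their identifiers they lie on chromosomes 9, 6 and 7 of the NCBIv3 assembly. The epi-F3 high group, enhanced line Epi68, is represented by plants 1 and 3 (n = 2), and the epi-F3 low group, non-enhanced line Epi15, by plants 1, 2 and 3 (n = 3). The study's text describes 3 plants of each line. Both lines are in the Tx430 background and descend from crosses of wild-type Tx430 with transgene-null progeny of MSH1-RNAi plants, so the epi-F3 low plants share the *msh1* history and no wild-type plant enters the comparison. Tx430 carries the unstable *dw3* allele, and the parents of the epi-lines were genotyped as homozygous for it. Each plant gave 1 library from leaf tissue taken at 4 weeks by the labels (the study's text also gives an age in days that is somewhat younger), from greenhouse plants kept under a 14 h day (28°C, with nights at 22°C). Each line is 1 selected family, so line and family cannot be told apart.

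Plant height in sorghum is set largely by the length of the stem internodes, and recessive alleles at the *Dw* loci shorten them. *Dw3* encodes an ABCB1-type auxin efflux transporter, the counterpart of maize *Br2*, which carries auxin down the stem. *Dw2* encodes a protein kinase of the AGC family, related to the KIPK kinases of Arabidopsis, and *Dw1* encodes a membrane protein that promotes brassinosteroid signaling and cell proliferation in internodes. The loss of function in *dw3* comes from a direct duplication inside an exon, and tall revertants arise when 1 copy is lost. A count per gene does not tell the *dw3* allele from a revertant *DW3* allele. Whether reads from the duplicated stretch were kept by the unique-mapping filter was not tested.

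Counts in genes summed to between 48372266 and 68979436 per library. Levels are given as CPM, the count of a gene relative to the TMM-scaled size of its library. The 2 epi-F3 high plants differed widely from each other in both gene groups that follow. Both groups were taken from the study's list of Arabidopsis homologs. That list was chosen on these samples, so the sums are not independent of them and need not cover all such genes. The 6 genes paired with Arabidopsis *MCM2* to *MCM7*, which serve DNA replication in dividing cells, summed to 25.9 CPM in epi-F3 high plant 1, 340 CPM in epi-F3 high plant 3 and 28.1 to 47.1 CPM in epi-F3 low plants. The 44 genes paired with organelle-encoded Arabidopsis genes summed to 1220 CPM in epi-F3 high plant 1, 263 CPM in epi-F3 high plant 3 and 84.8 to 222 CPM in epi-F3 low plants. Differences of the 3 dwarfing genes are therefore also given without single plants. The sources used here name no leaf marker genes by sorghum identifier, so the labelled tissue was not checked. In whole leaves, fewer cells of a type and less RNA per cell cannot be told apart.

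All 3 genes were detected in every plant, and only *Dw3* separated the lines. Counts ran from 794 to 2291 per gene and library, so that counting error was at most 3.55% of a value. *Dw3* was 1.66-fold higher in epi-F3 high, while the estimates for *Dw1* and *Dw2* were close to no change, at 1.09-fold and 0.924-fold. None of the 3 genes passed the test across all genes. A gene was called where its adjusted p did not exceed 0.1 and its log2 fold change was 0.5 or more in size, which held for 0.00433% of the tested genes, with 1 higher in epi-F3 high and 0 lower. Levels of the 2 lines stood fully apart, without overlap, in 1 of the 3 genes, against 16.8% of all tested genes.

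**Figure D1:**
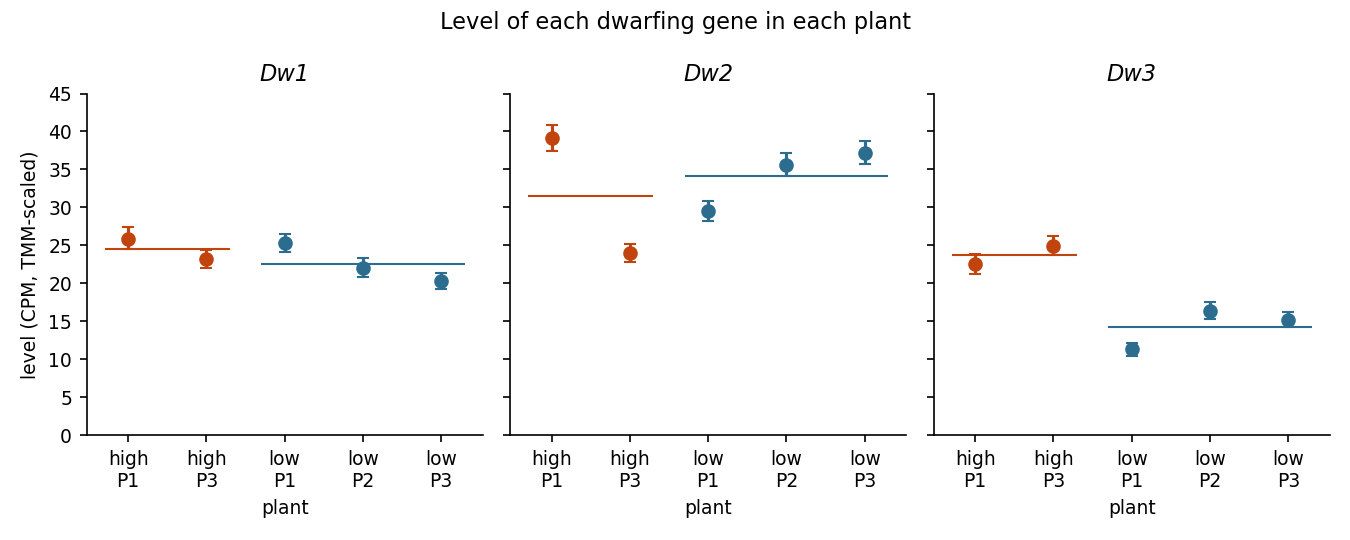
Level of *Dw1*, *Dw2* and *Dw3* (TMM-scaled CPM, vertical axis) in the 2 epi-F3 high and 3 epi-F3 low plants (points), with line means (horizontal lines) and 95% Wilson intervals of counting error (bars). For *Dw3* both epi-F3 high plants, at 22.6 and 24.9 CPM, lie above the highest epi-F3 low plant at 16.4 CPM, while for *Dw1* and *Dw2* the lines overlap.

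*Dw3*, the auxin transporter, had 1094 and 1619 counts in epi-F3 high plants 1 and 3, against 794, 903 and 936 counts in epi-F3 low plants 1, 2 and 3. As levels these were 22.6 CPM (95% Wilson interval 21.3 to 23.9) and 24.9 CPM (23.7 to 26.2) in epi-F3 high. In epi-F3 low they were 11.3 CPM (10.5 to 12.1), 16.4 CPM (15.3 to 17.5) and 15.2 CPM (14.3 to 16.2). Both epi-F3 high plants stood above every epi-F3 low plant, and epi-F3 low plant 1 stood lowest. The counting intervals of the 2 epi-F3 high plants shared values, as did those of epi-F3 low plants 2 and 3. The ratio of an epi-F3 high to an epi-F3 low plant was between 1.38 and 2.21 over the 6 pairs of plants. Scaling by RLE factors, by upper-quartile factors or by library totals also left the lines without overlap, and the narrowest gap, with RLE factors, was 22.4 CPM in epi-F3 high against 16.6 CPM in epi-F3 low. Lines without overlap and higher in epi-F3 high were found for 9.29% of all tested genes.

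The mean level of *Dw3* was 23.7 ± 1.68 CPM in epi-F3 high (SD, n = 2) and 14.3 ± 2.66 CPM in epi-F3 low (SD, n = 3). The log2 fold change was 0.73 (standard error 0.24, 95% interval 0.17 to 1.29), which as a fold is 1.13 to 2.45. The unadjusted p from edgeR's quasi-likelihood test was 0.0171 and the adjusted p over all tested genes 0.999. This test gave an unadjusted p below 0.05 for 3.22% of all tested genes, of which those higher in epi-F3 high made up 2.26% of all tested genes (522 higher, 222 lower). *Dw3* was number 191 of the 23098 genes in order of p, within the lowest 0.827%. A log2 fold change of this size or larger, in either direction, was seen in 19.4% of tested genes of any level, including genes with few counts. The share among genes of similar level was not worked out. In the exact permutation test over the 5 plants (two-sided) p was 0.1, the smallest that 2 against 3 plants allow. The line means of *Dw3* lay farther apart than the SD of either line, but the gene did not pass once adjusted over all genes.

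Without 1 plant at a time the log2 fold change of *Dw3* stayed between 0.57, without epi-F3 low plant 1, and 0.84, without epi-F3 low plant 2. It was 0.80 without epi-F3 high plant 1 and 0.65 without epi-F3 high plant 3, so the gene was higher in epi-F3 high with either plant of that line alone. The unadjusted p was 0.0598 without epi-F3 low plant 1 and 0.0563 without epi-F3 high plant 3. Fits that leave out an epi-F3 high plant hold 1 plant of that line, which is assumed to vary like the others. *Dw3* differed little between the 2 epi-F3 high plants, by 0.14 on the log2 scale, where the median over 5704 genes of similar level was 0.38. *Dw3* was above the epi-F3 low range both in the plant with the high organelle-paired sum and in the plant with the high MCM sum. The part of either in the level of *Dw3* was not tested.

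*Dw2*, the AGC kinase, had 1896 and 1556 counts in epi-F3 high plants 1 and 3, against 2072, 1963 and 2291 counts in epi-F3 low plants 1, 2 and 3. Its levels were 39.1 CPM (95% Wilson interval 37.4 to 40.9) and 24.0 CPM (22.8 to 25.2) in epi-F3 high. They were 29.5 CPM (28.2 to 30.8), 35.6 CPM (34.1 to 37.2) and 37.2 CPM (35.7 to 38.8) in epi-F3 low. The epi-F3 high plants held the highest and the lowest level of all 5, on either side of the whole epi-F3 low range. From epi-F3 high plant 1 down to epi-F3 low plant 2, each plant and the next in order had counting intervals that shared values.

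The mean of *Dw2* was 31.5 ± 10.7 CPM in epi-F3 high (SD, n = 2) and 34.1 ± 4.08 CPM in epi-F3 low (SD, n = 3). The log2 fold change was -0.11 (standard error 0.25, 95% interval -0.70 to 0.48), or 0.614 to 1.39 as a fold. This interval held no change as well as changes in either direction. The unadjusted p was 0.666 and the adjusted p 0.999 in edgeR's quasi-likelihood test, and p was 0.7 in the exact permutation test (two-sided). The direction depended on the plant: the log2 fold change was -0.51 without epi-F3 high plant 1 and 0.19 without epi-F3 high plant 3. Leaving out an epi-F3 low plant gave -0.23 without plant 1, -0.08 without plant 2 and -0.04 without plant 3. The gap between the 2 epi-F3 high plants was 0.71 on the log2 scale, where 6144 genes of similar level had a median of 0.34, and 80.2% of them had a gap as small or smaller. *Dw2* was low in epi-F3 high plant 3, in which the MCM genes stood at 340 CPM, and high in epi-F3 high plant 1, in which the organelle-paired genes stood at 1220 CPM. The part of either in the level of *Dw2* was not tested.

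*Dw1*, the membrane protein of brassinosteroid signaling, had 1256 and 1506 counts in epi-F3 high plants 1 and 3, against 1781, 1212 and 1248 counts in epi-F3 low plants 1, 2 and 3. Its levels were 25.9 CPM (95% Wilson interval 24.5 to 27.4) and 23.2 CPM (22.0 to 24.4) in epi-F3 high. They were 25.3 CPM (24.2 to 26.5), 22.0 CPM (20.8 to 23.3) and 20.3 CPM (19.2 to 21.4) in epi-F3 low. *Dw1* had the narrowest range of the 3 genes, with the highest plant at 1.28 times the lowest, against 1.63 times for *Dw2* and 2.21 times for *Dw3*. The top of the order, epi-F3 high plant 1 and epi-F3 low plant 1, did not differ beyond counting error.

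The mean of *Dw1* was 24.5 ± 1.91 CPM in epi-F3 high (SD, n = 2) and 22.5 ± 2.58 CPM in epi-F3 low (SD, n = 3). The log2 fold change was 0.12 (standard error 0.21, 95% interval -0.35 to 0.60), or 0.782 to 1.52 as a fold (edgeR's quasi-likelihood test, unadjusted p = 0.566, adjusted p = 0.999; exact permutation test, two-sided, p = 0.4). It lay between 0.04, without epi-F3 high plant 1, and 0.20, without epi-F3 high plant 3 or without epi-F3 low plant 1. It was 0.06 without epi-F3 low plant 3. Whether the change of *Dw1* differs from that of *Dw3* was not tested.

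**Figure D2:**
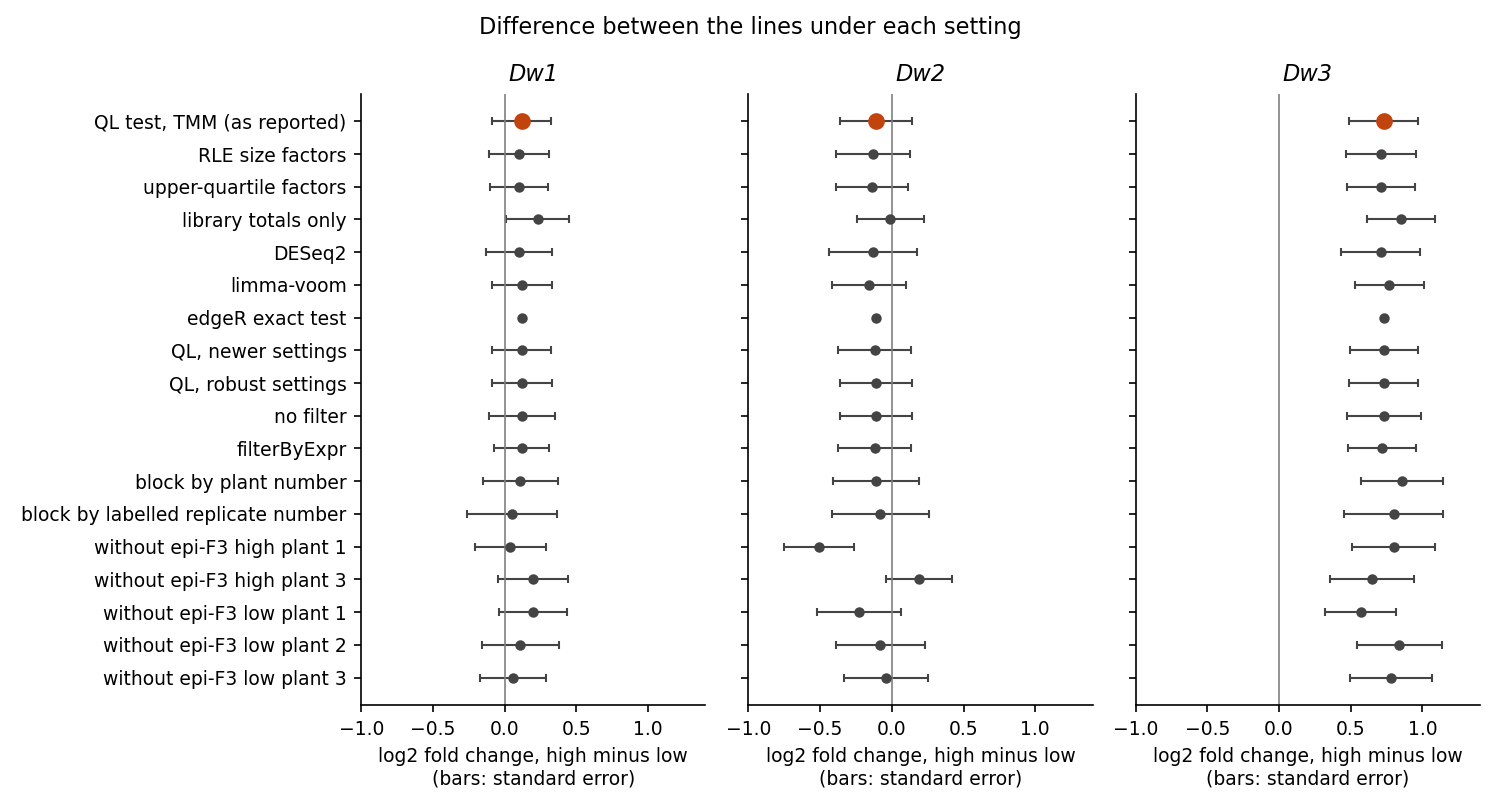
Log2 fold change of *Dw1*, *Dw2* and *Dw3*, epi-F3 high minus epi-F3 low (horizontal axis), as reported (orange point) and under 17 other settings (grey points), with standard errors as bars. The exact test gives no standard error. *Dw3* stays between 0.57 and 0.86, *Dw1* between 0.04 and 0.23, and *Dw2* is below 0 except without epi-F3 high plant 3, at 0.19.

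Among all tested genes, *Dw1* kept a similar place from plant to plant, between the 61.4 and 65.8 percentiles, and *Dw2* and *Dw3* varied more. By mean level *Dw2* stood at the 70.5th, *Dw1* at the 63.6th and *Dw3* at the 58.8th percentile of CPM. These percentiles are not corrected for gene length, so they do not order the 3 genes by transcript abundance. *Dw3* stood at the 63.1 and 64.5 percentiles in epi-F3 high plants 1 and 3, against 51.8, 58.5 and 56.2 in epi-F3 low plants 1, 2 and 3. *Dw2* stood at 73.8 and 63.8 in epi-F3 high, against 68.6, 72.2 and 73.4 in epi-F3 low. Within epi-F3 low the coefficient of variation was 18.6% for *Dw3*, 12.0% for *Dw2* and 11.4% for *Dw1*. Genes of similar level had medians of 14.6, 13.1 and 13.8% there, so *Dw3* varied somewhat more between epi-F3 low plants than the median gene of its level, and *Dw1* and *Dw2* somewhat less.

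**Figure D3:**
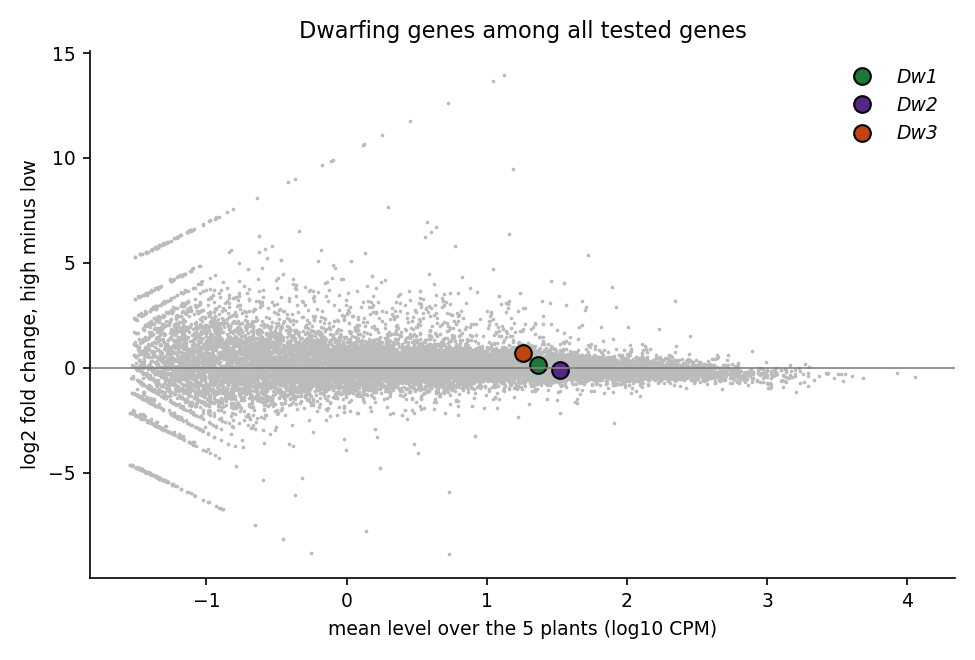
Log2 fold change, epi-F3 high minus epi-F3 low (vertical axis), against the mean level over the 5 plants (log10 CPM, horizontal axis) for the 23098 tested genes (grey) and the 3 dwarfing genes (coloured). *Dw3*, at 0.73, lies at the upper side of the band of genes of its level, and *Dw1*, at 0.12, and *Dw2*, at -0.11, lie inside it.

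Ratios between 2 of the genes within a plant do not depend on library scaling. The ratio of *Dw3* to *Dw2* counts was 0.577 and 1.04 in epi-F3 high plants 1 and 3, against 0.383, 0.460 and 0.409 in epi-F3 low plants 1, 2 and 3. The epi-F3 low plants lay close together and both epi-F3 high plants lay above them, with epi-F3 high plant 3 farthest away. On the log2 scale the mean ratio was -0.37 ± 0.60 in epi-F3 high (SD, n = 2) and -1.27 ± 0.13 in epi-F3 low (SD, n = 3). When every tested gene was set against *Dw2* in this way, the lines did not overlap in 11.6% of genes.

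The ratio of *Dw3* to *Dw1* was 0.871 and 1.08 in epi-F3 high plants 1 and 3, against 0.446, 0.745 and 0.750 in epi-F3 low plants 1, 2 and 3. Here too the lines did not overlap, which held for 17.6% of tested genes set against *Dw1*. Epi-F3 low plant 1 stood below the other epi-F3 low plants, as the plant with the highest *Dw1* and the lowest *Dw3* of its line. The ratio of *Dw1* to *Dw2* was 0.662 and 0.968 in epi-F3 high plants 1 and 3, against 0.860, 0.617 and 0.545 in epi-F3 low plants 1, 2 and 3. For this pair the lines overlapped. *Dw3* was thus higher relative to both other dwarfing genes in epi-F3 high. No test was made on these ratios.

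**Figure D4:**
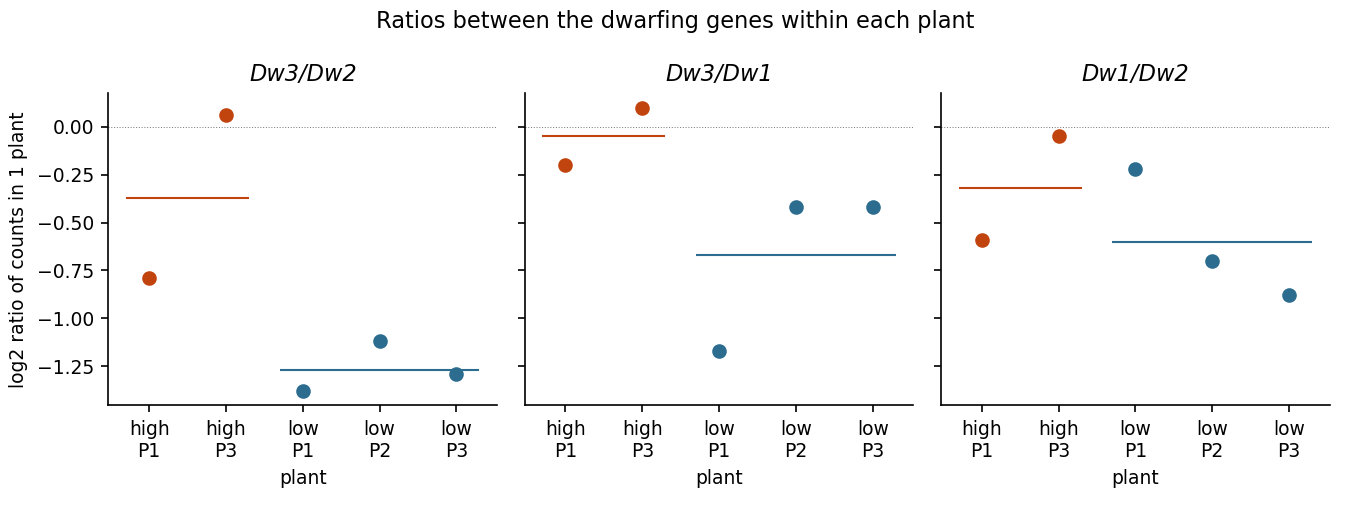
Log2 ratio of the counts of 2 dwarfing genes within each plant (vertical axis) for the 2 epi-F3 high and 3 epi-F3 low plants (points), with line means (horizontal lines). *Dw3* over *Dw2* and *Dw3* over *Dw1* lie above every epi-F3 low plant in both plants of epi-F3 high, and *Dw1* over *Dw2* overlaps.

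The 3 genes did not share a pattern over the 5 plants. Likeness was measured as the distance between log2 CPM profiles, each centred on its own mean over the 5 libraries, where 0 is an identical profile. The distance was 0.686 between *Dw1* and *Dw2*, 0.936 between *Dw1* and *Dw3* and 1.17 between *Dw2* and *Dw3*. When the 17327 genes with a mean of at least 1 CPM were ordered by likeness to *Dw2*, *Dw1* stood at place 6588 and *Dw3* at place 13035. The genes nearest to *Dw3* were *SORBI_3004G217600*, at a distance of 0.216, *SORBI_3003G368500*, at 0.248, and *SORBI_3004G282500*, at 0.250. The first of them stood at 82.5 and 112 CPM in epi-F3 high plants 1 and 3, against 43.8, 66.4 and 59.8 CPM in epi-F3 low plants 1, 2 and 3. It had the same order of plants as *Dw3*, with a log2 fold change of 0.78 and, in edgeR's quasi-likelihood test, an adjusted p of 0.999.

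The genes nearest to *Dw2* were *SORBI_3003G247900*, at a distance of 0.0404, *SORBI_3001G408300*, at 0.0876, and *SORBI_3002G172500*, at 0.0927. *SORBI_3003G247900* stood at 60.7 and 38.0 CPM in epi-F3 high plants 1 and 3, against 47.0, 56.8 and 60.0 CPM in epi-F3 low plants 1, 2 and 3. Nearest to *Dw1* were *SORBI_3002G179500*, at 0.0568, *SORBI_3002G042800*, at 0.0580, and *SORBI_3004G184000*, at 0.0608. Within a distance of 0.3 there were 14 genes for *Dw3*, 536 for *Dw2* and 1439 for *Dw1*. The profile of *Dw3* was thus shared by fewer genes than those of *Dw2* and *Dw1*, whose plants differed less. With 5 plants such likeness is a description, and the sources used here pair none of these 9 genes with a name.

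The neighbours of each gene in the order of locus numbers were read from the same fit, to see whether a difference at a dwarfing gene stood within a longer stretch. None of the 10 tested neighbours of *Dw3* passed the test, against 0.00433% of all tested genes. None had an unadjusted p under 0.05, against 3.22%, so with 10 genes these counts do not set the stretch apart. Their median log2 fold change was -0.17, with 3 above and 7 below 0, against 0.02 over all tested genes. Of the tested genes on either side of *Dw3*, 1 had 25.4 CPM or more in every plant and 1 was near 0. *SORBI_3007G163700* stood at 25.4 and 42.0 CPM in epi-F3 high plants 1 and 3, against 38.0, 28.1 and 46.5 CPM in epi-F3 low plants 1, 2 and 3. *SORBI_3007G163901* reached 0.747 CPM at most, in epi-F3 low plant 3.

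There was no overlap between the lines in 4 of the 10 neighbours of *Dw3*, 1 higher and 3 lower in epi-F3 high, against 16.8% of all tested genes, and 3 of these 4 were very low. *SORBI_3007G164000* stood at 37.6 and 35.1 CPM in epi-F3 high plants 1 and 3, against 41.4, 44.5 and 45.5 CPM in epi-F3 low plants 1, 2 and 3, with a log2 fold change of -0.27. The neighbour with the lowest p, *SORBI_3007G163400*, paired with the Arabidopsis receptor-like kinase *TMKL1*, had 13 and 14 counts in epi-F3 high plants 1 and 3, against 1, 3 and 2 counts in epi-F3 low plants 1, 2 and 3 (edgeR's quasi-likelihood test, unadjusted p = 0.055, adjusted p = 0.999).

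The 10 neighbours of *Dw1* had a median log2 fold change of 0.02 and those of *Dw2* one of 0.01. None of these 20 genes passed the test, against 0.00433% of all tested genes, and none had an unadjusted p under 0.05, against 3.22%. The lines did not overlap in 1 of them, *SORBI_3006G067500* beside *Dw2*, against 16.8% of all tested genes. That gene stood at 16.6 and 18.1 CPM in epi-F3 high plants 1 and 3, against 13.1, 15.8 and 15.1 CPM in epi-F3 low plants 1, 2 and 3. The lowest p was 0.225 beside *Dw1*, for *SORBI_3009G230100*, and 0.263 beside *Dw2*, for *SORBI_3006G067150*.

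**Figure D5:**
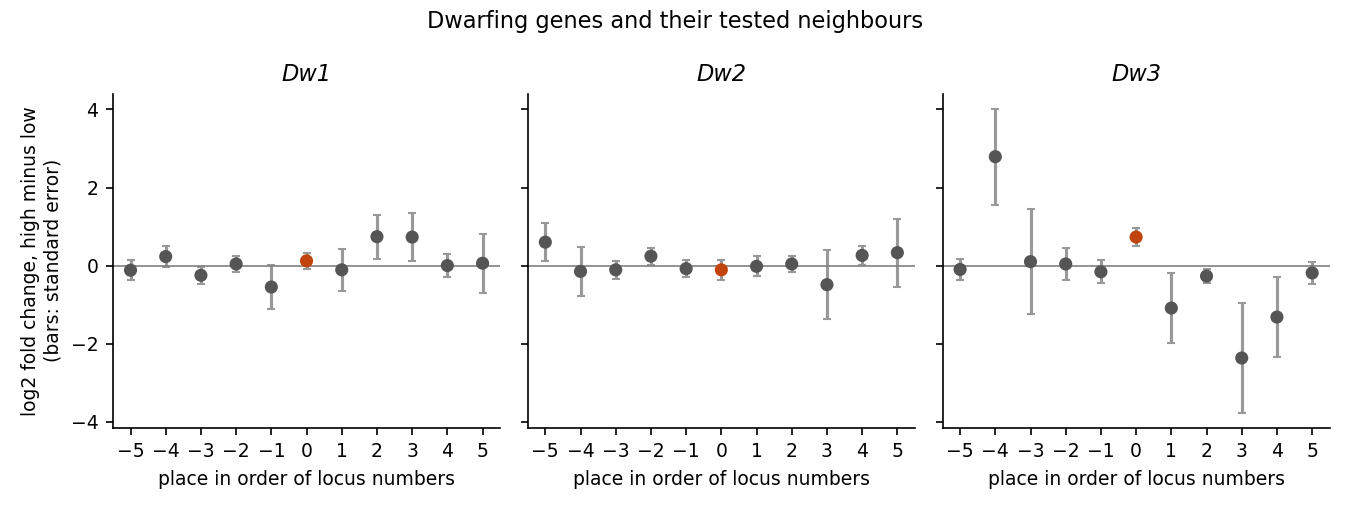
Log2 fold change, epi-F3 high minus epi-F3 low (vertical axis, bars are standard errors), for each dwarfing gene (orange, place 0) and its 10 nearest tested genes in the order of locus numbers (grey, horizontal axis). *Dw3* lies at 0.73 among neighbours with a median of -0.17, and the points far from 0 beside it are genes with few counts.

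Other genes of auxin transport, of height hormones and of the AGC kinase family could be named only through the study's list of Arabidopsis homologs. With the same thresholds the paper called far more genes different between these lines than passed here. It describes a search for homologs of these called genes. That list was chosen on these samples and holds *Dw3* itself, and in it the lines did not overlap in 67.3% of 1089 genes, so directions and lack of overlap in it are not independent evidence. Besides *Dw3* it held 6 such genes, 3 higher and 3 lower on average in epi-F3 high. Their log2 fold changes ran from -1.21 to -0.78 in the 3 lower genes and from 0.89 to 2.76 in the 3 higher genes. The median of 0.05, against 0.02 over all tested genes, falls between these and describes none of the 6. None of the 6 passed the test, and at an unadjusted p under 0.05 there were 1 higher and 2 lower. The ABCB genes among them did not share a direction.

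ABCB transporters are membrane pumps, some of which export auxin. *SORBI_3003G281400*, paired with *ABCB15*, stood at 122 and 110 CPM in epi-F3 high plants 1 and 3, against 61.7, 86.3 and 39.5 CPM in epi-F3 low plants 1, 2 and 3. Its log2 fold change was 0.89 (standard error 0.31; edgeR's quasi-likelihood test, adjusted p = 0.999). A second gene paired with *ABCB15*, *SORBI_3004G073500*, went the other way. It stood at 33.9 and 23.6 CPM in epi-F3 high plants 1 and 3, against 34.9, 60.5 and 53.0 CPM in epi-F3 low plants 1, 2 and 3. Its log2 fold change was -0.78 (standard error 0.29). *SORBI_3009G218450*, paired with *ABCB11*, had 273 and 156 counts in epi-F3 high plants 1 and 3, against 113, 119 and 16 counts in epi-F3 low plants 1, 2 and 3, and a log2 fold change of 1.58 (standard error 0.81). Among the ABCB genes of the list, *Dw3* had the smallest change on the log2 scale, at 0.73 (standard error 0.24). It also had the lowest unadjusted p of them, at 0.0171 in edgeR's quasi-likelihood test. Whether these changes differ in size, and whether reads of this family were placed on the right gene, was not tested.

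The remaining genes of the list were low in these leaves. *SORBI_3001G172400*, paired with *CYP85A2*, an enzyme of the last steps of brassinosteroid synthesis, stood at 1.92 and 2.91 CPM in epi-F3 high plants 1 and 3, against 3.90, 6.24 and 6.62 CPM in epi-F3 low plants 1, 2 and 3. Its log2 fold change was -1.21 (standard error 0.43; edgeR's quasi-likelihood test, adjusted p = 0.999). *SORBI_3003G005700*, paired with *AGC1-7*, a kinase of the family of *Dw2*, stood at 1.57 and 0.770 CPM in epi-F3 high plants 1 and 3, against 2.72, 2.72 and 2.45 CPM in epi-F3 low plants 1, 2 and 3. *SORBI_3005G052500*, paired with the auxin influx carrier *LAX2*, had 48 and 24 counts in epi-F3 high plants 1 and 3, against 19, 1 and 0 counts in epi-F3 low plants 1, 2 and 3. In each of these 3 genes the lines did not overlap, as in most of the list, and none passed the test.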

How the data were processed

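The deposited files hold raw counts per gene. Per the paper's methods, the authors made these counts with QoRTs 1.3.0 (mapping quality of 25 or more) from unique STAR 2.7.3a alignments to NCBIv3 of reads trimmed by TrimGalore! 0.4.1, and tested them with edgeR 3.26.8. The strand setting is not given in the sources used here, so whether reads of overlapping antisense genes were told apart is not known. The 5 summary lines of each file, with 3.77 to 7.07% of reads in no gene and 0.445 to 0.557% ambiguous, were left out.

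Every gene whose 5 libraries summed to 10 counts or more was fitted with edgeR 4.0.16 in R 4.3.3 (TMM, quasi-likelihood test with default settings, line as the only term, Benjamini-Hochberg adjustment over all 23098 genes). The scripts were tested on simulated data with known changes. Standard errors and intervals come from the F statistic and are approximate. Wilson intervals cover counting error only. The labels call the plants biological replicates. Alternatives were other scalings and filters, DESeq2 1.42.0, limma-voom (limma 3.58.1), edgeR's exact test, a replicate block and leaving out each plant. Members, gene lists and tests were chosen with earlier results of these data known. Genes named are the 3 members, the 3 genes nearest to each in profile, the ABCB genes and those of lowest p in the list, and the neighbour of lowest p. Other neighbours, and the other genes of the list, were chosen for mention with their values known. Names were taken from the study's homolog table. The RefSeq gene table matched 0 identifiers, so positions, lengths and sequences are not given.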

Additional observations from a re-analysis of the deposited data

Results flagged for a closer look

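The share of reads that fell in more than 1 gene, which the counts leave out, was higher in both epi-F3 high plants, at 0.528% in plant 1 and 0.557% in plant 3, than in the epi-F3 low plants, at 0.477, 0.463 and 0.445% in plants 1, 2 and 3. Whether such reads come from the dwarfing genes was not tested.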

How the results depend on the processing

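None of the 3 genes was called under any of the 17 alternatives, and *Dw1* and *Dw3* kept their direction in all of them. For *Dw3* the adjusted p lay between 0.483 and 1, and the unadjusted p was under 0.05 in 15. The log2 fold change of *Dw2* was 0.19 without epi-F3 high plant 3 and below 0 in the other 16 alternatives, down to -0.51 without epi-F3 high plant 1. Over all genes, edgeR's quasi-likelihood test called 1 higher and 0 lower (522 and 222 at an unadjusted p under 0.05). The balance at that p was 778 and 133 with library totals only, and turned to 814 and 880 without epi-F3 high plant 3. Calls by adjusted p and fold change were 43 higher and 25 lower with DESeq2 and 40 and 11 with edgeR's exact test. They were 10 and 2 with no filter and 2 and 0 with robust settings. The newer quasi-likelihood settings, which were added after the data were seen because the default is the legacy setting, gave 6 and 1. There were 0 and 0 calls with limma-voom (443 and 219 at an unadjusted p under 0.05), upper-quartile factors (465 and 268), filterByExpr (406 and 236) or the stricter threshold. Leaving out each plant gave 0 to 76 higher and 0 to 4 lower, with 76 and 4 without epi-F3 high plant 1, 26 and 1 without epi-F3 high plant 3 and 0 higher without epi-F3 low plant 2 or 3. The median of the 6 other genes of auxin transport, height hormones and AGC kinases lay between -0.06 and 0.29 then.

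With a replicate block by plant number, 46 genes were called higher and 24 lower, and with a replicate block by labelled replicate number 7 and 0. *Dw3* had a log2 fold change of 0.86 and 0.80 in these fits, *Dw1* of 0.11 and 0.05, and *Dw2* of -0.11 and -0.08. Deviations of same-numbered plants from their line means correlated at 0.0209 and 0.387 by plant number and at 0.0209 and -0.363 by replicate number over all tested genes. The value of 0.0209 is the same pair of plants in both, and deviations within a line cancel out, so these values are not independent. With 2 such pairs the numbers were not shown to pair plants. With 2 against 3 plants, the intervals of *Dw1* and *Dw2* held no change as well as changes in either direction.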
